A study of Mus musculus with 12 samples.

Results

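The genes described here are 40 mouse genes for the factors that start, extend, end and recycle translation, read in NIH3T3 cells after mTOR inhibition. They were taken as a fixed list of gene names, not by their values, and 39 of the 40 were measured, among 19628 genes or unnamed probes tested in all, of which 12520 had a gene symbol. No probe was matched to Eif2b3, which encodes a subunit of the exchange factor eIF2B. Of these, 38 were well above background on each of the 8 arrays used for the tests, and Eif2s3x was on 7, with its spot on DMSO 1 left out as an outlier. The list was split as 17 genes of the eEF1, eEF2 and eIF3 families, called TOP-type below after the tract found in many mRNAs of these families, and 22 other measured genes.

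NIH3T3 is an established line of mouse embryo fibroblasts. They received DMSO (the solvent), 50 nM rapamycin or 2 µM PP242 over 18 h, and each of the 3 groups had 4 arrays, described in the design as independent experiments (1 protocol field writes the PP242 dose in mM). Rapamycin acts allosterically on mTOR complex 1, whereas PP242 competes with ATP at the mTOR kinase and so reaches both mTOR complexes. The agents were each given at a single dose and time, so a difference between them is one between these treatments and not between matched doses. All groups used the same line in medium with calf serum, and RNA was amplified and labelled with Cy3 for 1-colour Agilent arrays. A level below is log2 of the processed signal minus the 75th percentile of that signal on the same array; a level depends on the probe as well as the gene, so levels served to sort probes by brightness and not to compare the abundance of different genes.

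Translation begins when eIF2 carries the initiator tRNA to the small ribosomal subunit, where eIF1, eIF1A, eIF3 and eIF5 help to find the start codon. eEF1 then brings each aminoacyl-tRNA, eEF2 moves the ribosome along, eIF5A helps it at difficult peptide bonds, and eRF1, eRF3 and ABCE1 release the peptide and split the ribosome. mTOR complex 1 is best known in fibroblasts for controlling the translation of TOP mRNAs, which begin with a C followed by a run of pyrimidines and which encode ribosomal proteins and many of these factors. An array measures the amount of mRNA and not its translation.

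The letters around the start of the gene show how far the name TOP-type is borne by the annotated starts. Windows of 30 bases, from 10 bases before the annotated start to 20 bases after it, were read on the gene's strand from RefSeq (GRCm38.p6) for 30 of the 40 genes. The 10 genes with no entry were Eif1a, Eif2b3, Eif3e, Eif3h, Eif3i, Eif6, Eef1d, Eef1g, Etf1 and Pabpc1. Capitals mark the longest run of a C followed by C or T only, wherever it lay in the window. Runs that reached the end of a window, as those of Eef2 and Eif3k did, were not read further and may be longer. Shown first are the 7 genes with a run of at least 8, and then Eef2 and Eif3b, TOP-type genes with a run of 5 whose mRNA differed between PP242 and DMSO.
Eif3f (chr7:108934405-108934434, plus strand): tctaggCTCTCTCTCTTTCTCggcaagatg
Eif3l (chr15:79075213-79075242, plus strand): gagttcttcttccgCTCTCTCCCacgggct
Eef1a1 (chr9:78481705-78481734, minus strand): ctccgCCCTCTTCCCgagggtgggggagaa
Eif2b5 (chr16:20498807-20498836, plus strand): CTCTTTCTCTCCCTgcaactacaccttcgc
Eif2s3x (chrX:94212632-94212661, minus strand): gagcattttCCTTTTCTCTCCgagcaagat
Eif2b2 (chr12:85219471-85219500, plus strand): ccgagcggaagttgaCCTCTCTCggcccgg
Abce1 (chr8:79711721-79711750, minus strand): tgacgtcaccaacgtcatcaCTCCCTCCag
Eef2 (chr10:81176621-81176650, plus strand): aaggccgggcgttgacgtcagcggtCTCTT
Eif3b (chr5:140419295-140419324, plus strand): ggcgcgcggtgaCTTCTgggagtcggaagc

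A run of at least 5 was present in 6 of 12 TOP-type genes with a window and in 6 of 18 other genes, against 35.8% of 32851 windows of all genes. A run of at least 8 was present in 3 of 12 and 4 of 18, against 8.68% of all windows. Counted with the annotated start as base 1, these runs began at -4 (Eif3f), 5 (Eif3l), -5 (Eef1a1) and -10 (Eif2b5). They began at -1 (Eif2s3x), 6 (Eif2b2) and 11 (Abce1) in the others. A run in the window is thus not the same as a tract at the first base of the mRNA. At none of the 6 annotated starts of Eif5a did the run exceed 3. The 7 genes with the longer run had a median log2 fold change of -0.09 between PP242 and DMSO, with 2 of 7 called, and the 23 without it had -0.10, with 8 of 23 called, against 26.2% of all genes called in that comparison. The list called TOP-type is thus one of gene families, and Pabpc1, a known TOP mRNA for the poly(A)-binding protein, falls among the other genes.

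The 12 arrays were not of 1 kind. On 4 of them (DMSO 2, Rapamycin 3, PP242 1 and PP242 4) dim probes were raised: the 75th percentile of the signal was 7.12 to 51.1 times the 25th, against 261 to 420 times on the other 8. The tests below use those 8 arrays (3 DMSO, 3 rapamycin and 2 PP242) in 1 limma model, with p-values adjusted by Benjamini-Hochberg over all 19628 genes and a threshold of 0.05, and the same model on all 12 arrays is given beside them. The arrays lay on 3 slides. Where arrays are said below to lie above, below or apart from others, the 8 fitted arrays are meant unless others are named. All 9 fibroblast markers with a probe were well above background on all 12 arrays. On the 8 arrays 0 of 4 endothelial and at most 1 of 5 epithelial markers were, as were 1 to 3 of 4 leukocyte, 1 to 3 of 4 muscle and 2 to 3 of 4 adipocyte markers. Adipocyte markers summed to 0.537 to 10.6 times the array's 75th percentile with DMSO, 0.452 to 11.03 with rapamycin and 11.2 to 11.6 with PP242, and their part in the results was not tested.

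**Figure D1:**
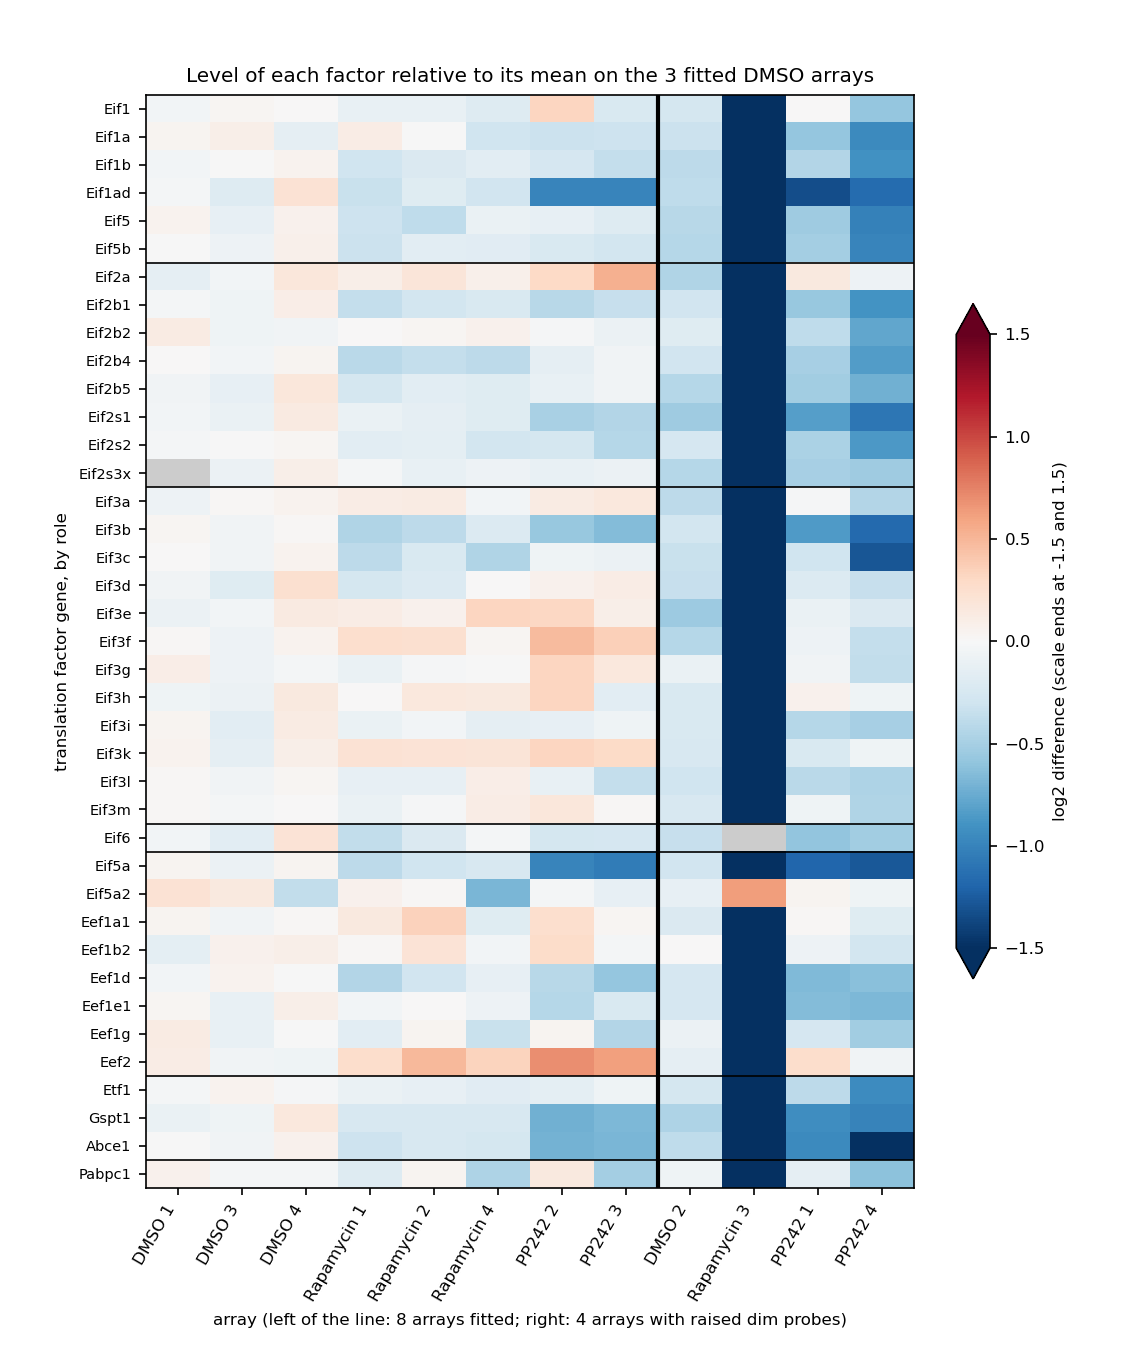
Level of each of the 39 measured genes on each array (columns) as a log2 difference from its mean on the 3 fitted DMSO arrays, with genes in rows by role and grey for a spot left out; the colour scale ends at -1.5 and 1.5. Eif5a, Eif1ad, Gspt1 and Abce1 are blue and Eef2 and Eif3f red on both fitted PP242 arrays, and nearly the whole Rapamycin 3 column, right of the line, lies at the dark blue end.

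The map of levels by array shows these genes on the fitted arrays and on the 4 left out. On Rapamycin 3 the median deviation of the genes from their own mean was -2.39, and on the other rapamycin arrays it was between -0.04 and 0.02. Eif5a2, the dim paralog of Eif5a, was the exception there, at -0.26 on Rapamycin 3 against -1.57 to -0.82 on the other rapamycin arrays.

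With PP242, 11 of the 39 genes differed from DMSO on the 8 arrays, 2 higher and 9 lower. That split depended on the scaling: quantile normalisation gave 5 higher and 5 lower, and the deposited log2 table gave 5 higher and 6 lower. Eif5a, Eif1ad, Gspt1 and Abce1 fell the most, and Eef2, which moves the ribosome along the mRNA, rose the most. The share called, 28.2%, was near the 26.2% of all genes called in this comparison (12.9% higher and 13.3% lower). The groups by role described below hold few genes each, and the same shares of all genes stand beside their counts. The changes were small, with a median fold of 1.17 over the 39 genes and a largest of 2.02. With all 12 arrays 0 of the 39 were called by limma against 0.441% of 23803 genes called, and 1 of the 39 had an unadjusted p under 0.05, against 9.52% of all genes. With the slide as a block on the 8 arrays 3 were called (Eif5a, Eif1ad and Abce1), against 7.25% of all genes. Within slide 1, which held PP242 2, DMSO 1 and DMSO 4, the differences of the 11 genes ran from -1.08 to 0.67, and their signs follow from the separation of the groups described below.

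**Figure D2:**
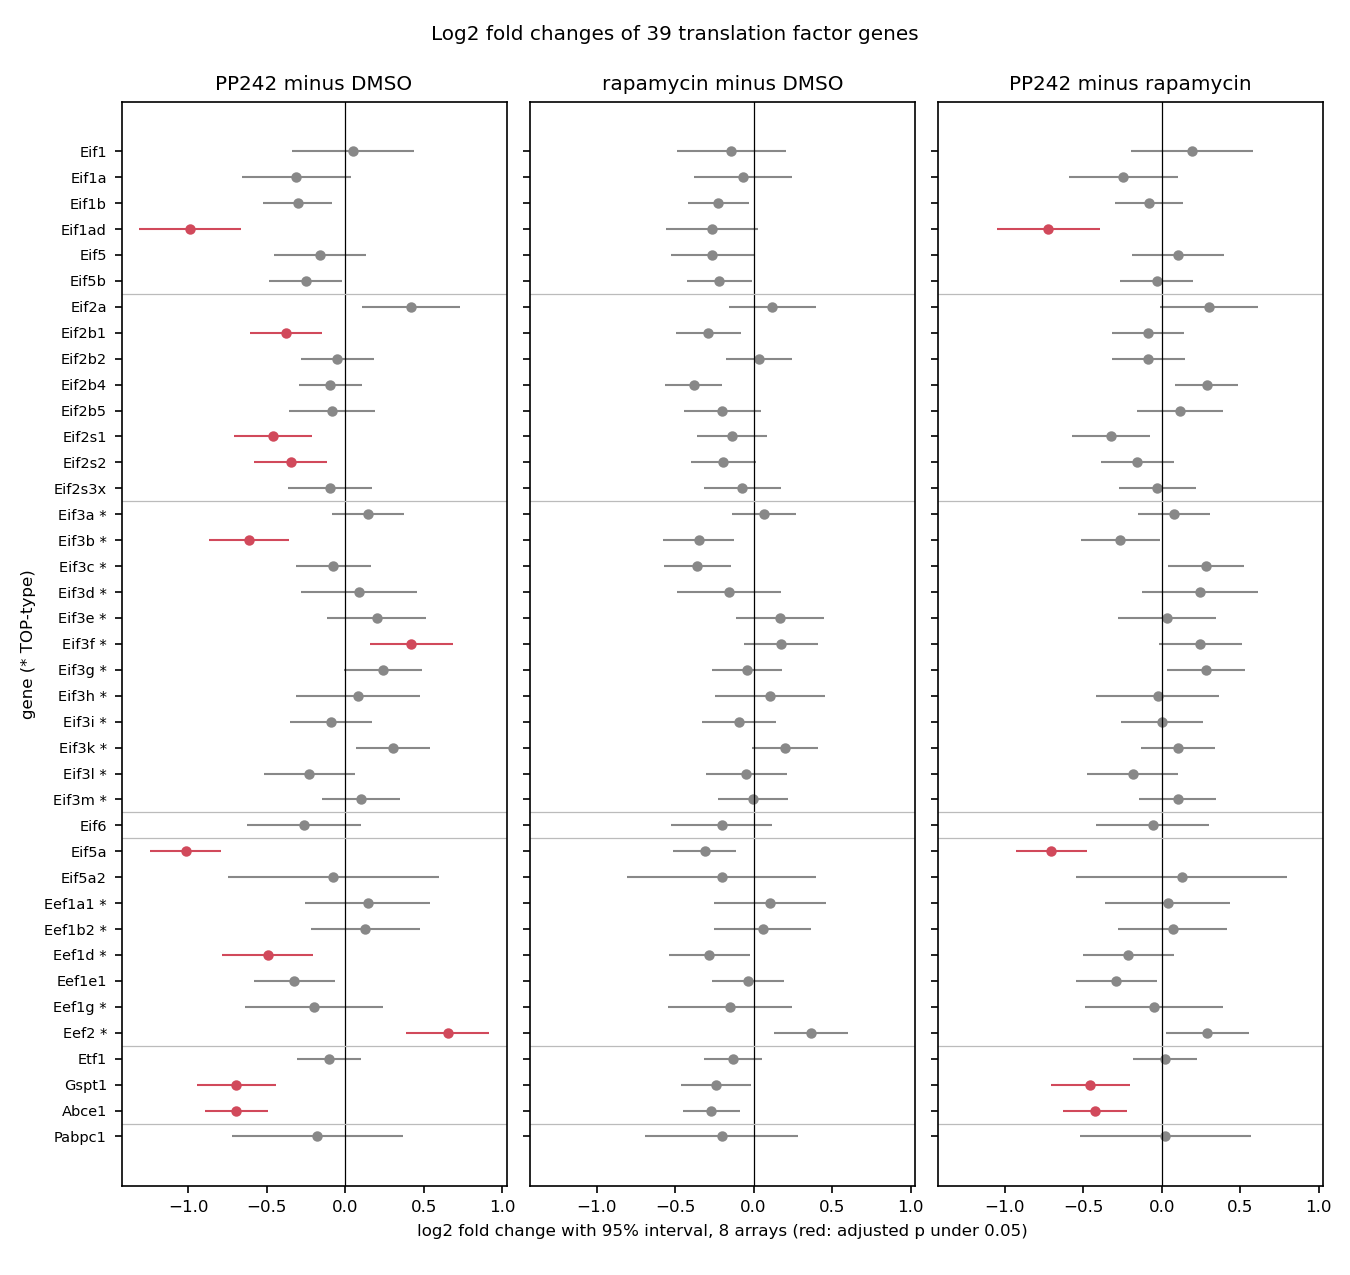
Log2 fold change with its 95% interval for each of the 39 genes in the 3 comparisons, 8 arrays, with red for an adjusted p under 0.05 and an asterisk for TOP-type genes. Red appears for 11 genes in the left panel, for none in the middle panel and for 4 in the right panel.

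Of 6 genes listed for scanning, start codon choice and subunit joining, 1 fell with PP242. That gene, Eif1ad, is grouped here by its likeness to eIF1A and not by a known part in scanning. Eif1ad, whose product carries a domain like that of eIF1A, stood at 2.16, 2.00 and 2.41 on DMSO 1, 3 and 4, at 1.86, 2.01 and 1.90 on Rapamycin 1, 2 and 4, and at 1.20 on PP242 2 and PP242 3 alike. The PP242 arrays lay below all others, while the rapamycin arrays overlapped the DMSO arrays. Its log2 fold change between PP242 and DMSO was -0.99 ± 0.14 (SE; adjusted p = 0.00372). Its other probe gave -1.07.

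Eif1, which holds the scanning ribosome open, was the brightest of this group that did not pass. It read 7.23, 7.30 and 7.28 with DMSO, 7.15, 7.15 and 7.07 with rapamycin, and 7.59 and 7.04 with PP242. Its PP242 arrays lay on either side of the DMSO arrays, and the log2 fold change was 0.05 with a 95% interval from -0.34 to 0.44. Eif1b, a close relative of Eif1, had -0.30 ± 0.09 (adjusted p = 0.0516), just outside the threshold. For Eif1a, Eif5, the GTPase activator of eIF2, and Eif5b, the subunit-joining GTPase, the values were -0.31, -0.16 and -0.25, and none passed. In each of the 3 genes the fitted PP242 arrays lay below the fitted DMSO arrays, as held for 29.2% of all genes. DMSO 2, which was not fitted, read 3.77, 3.84 and 3.40, below a fitted PP242 array in each gene.

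Of 8 measured genes for eIF2, its exchange factor eIF2B and the separate factor eIF2A, 3 fell with PP242. Eif2s1, the alpha subunit that stress kinases phosphorylate, stood at 3.97, 3.91 and 4.15 with DMSO, at 3.92, 3.88 and 3.83 with rapamycin, and at 3.53 and 3.58 with PP242, a log2 fold change of -0.46 ± 0.10 (adjusted p = 0.0196). Eif2s2, the beta subunit, read 5.30, 5.32 and 5.35 with DMSO, 5.17, 5.18 and 5.05 with rapamycin, and 5.06 and 4.89 with PP242, a change of -0.35 ± 0.10 (adjusted p = 0.04). For both genes the PP242 arrays lay below all DMSO arrays. Another, dimmer probe of Eif2s2 gave -1.17, so the size of its change depends on the probe.

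Eif2b1, the alpha subunit of eIF2B, read 3.33, 3.29 and 3.45 with DMSO, 3.00, 3.08 and 3.13 with rapamycin, and 2.94 and 3.02 with PP242. Both drug groups lay below the DMSO arrays and overlapped each other, and the change with PP242 was -0.38 ± 0.10 (adjusted p = 0.0305). The other eIF2B subunits did not pass: Eif2b2, the brightest of the role group that did not pass, read 5.45, 5.26 and 5.27 with DMSO, 5.33, 5.36 and 5.39 with rapamycin, and 5.31 and 5.23 with PP242. Its groups of DMSO and PP242 arrays overlapped, with a log2 fold change of -0.05 and an interval from -0.28 to 0.18. Eif2b4 and Eif2b5 had -0.10 and -0.09, and Eif2s3x, the gamma subunit, had -0.10 over the 7 arrays that measured it. Its other probes had the opposite sign, at 0.29 each. Eif2a, which can bring initiator tRNA without eIF2, was at 2.50, 2.59 and 2.80 with DMSO and at 2.93 and 3.17 with PP242, a change of 0.42 ± 0.13 that missed the threshold (adjusted p = 0.0573).

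Of the 12 listed subunits of eIF3, the scaffold of the initiation complex, 1 rose, 1 fell and 10 did not pass with PP242. Eif3f read 4.72, 4.63 and 4.76 with DMSO, 4.96, 4.94 and 4.73 with rapamycin, and 5.18 and 5.06 with PP242, a log2 fold change of 0.42 ± 0.11 (adjusted p = 0.0346). Eif3b, a core subunit, read 6.09, 6.01 and 6.09 with DMSO, 5.61, 5.68 and 5.86 with rapamycin, and 5.49 and 5.41 with PP242, a change of -0.61 ± 0.11 (adjusted p = 0.00796). The groups of PP242 and DMSO arrays did not overlap for either gene, and for Eif3b the rapamycin arrays lay between them. Its dimmer probe gave -0.42.

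Eif3h, the brightest subunit gene that did not pass, read 6.43, 6.41 and 6.64 with DMSO, 6.50, 6.65 and 6.64 with rapamycin, and 6.81 and 6.34 with PP242. The PP242 arrays spanned the other groups, and the change of 0.08 had an interval from -0.31 to 0.47. Eif3k, an accessory subunit, had 0.30 ± 0.10 (adjusted p = 0.067), with each PP242 array above each DMSO array. The other 8 subunits, Eif3a, Eif3c, Eif3d, Eif3e, Eif3g, Eif3i, Eif3l and Eif3m, had 0.14, -0.08, 0.09, 0.20, 0.24, -0.09, -0.23 and 0.10. Probes disagreed in size for Eif3c, from -0.73 to -0.06. Eif6, which keeps the large subunit from joining too early, read 4.56, 4.44 and 4.81 with DMSO, 4.24, 4.38 and 4.58 with rapamycin, and 4.33 and 4.35 with PP242, a change of -0.26 with an interval from -0.62 to 0.10.

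Elongation factors moved in both directions: of 8 genes, 1 rose and 2 fell with PP242. Eif5a, whose product carries the modified residue hypusine, stood at 6.51, 6.39 and 6.51 on DMSO 1, 3 and 4, at 6.08, 6.17 and 6.23 on Rapamycin 1, 2 and 4, and at 5.48 and 5.43 on PP242 2 and 3. The 3 groups were fully separate, in the order DMSO, rapamycin, PP242. The change with PP242 was -1.02 ± 0.09 (adjusted p = 0.000994), a 2.02-fold lower level, and the dimmer probe gave -0.98. Eif5a2, its paralog, had -0.08 with an interval from -0.75 to 0.60, at a level below the arrays' 75th percentile.

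Eef2 read 5.98, 5.82 and 5.80 with DMSO, 6.13, 6.35 and 6.20 with rapamycin, and 6.56 and 6.48 with PP242. Here the order of the separate groups was the reverse, with PP242 highest, and the change was 0.65 ± 0.11 (adjusted p = 0.00738). All 3 probes were higher with PP242, from 0.65 to 1.09. Eef1d, a subunit of the exchange factor that reloads eEF1A with GTP, read 6.38, 6.48 and 6.42 with DMSO, 5.99, 6.14 and 6.30 with rapamycin, and 6.01 and 5.85 with PP242, a change of -0.49 ± 0.12 (adjusted p = 0.0269). Each drug array lay below each DMSO array, and its 3 probes ranged from -1.08 to -0.11.

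The partners of Eef1d in the exchange factor did not pass. Eef1g, the brightest such gene, read 8.0, 7.77 and 7.87 with DMSO, 7.73, 7.91 and 7.54 with rapamycin, and 7.92 and 7.43 with PP242. These groups overlapped, and its change of -0.20 had an interval from -0.64 to 0.24. Eef1b2 had 0.13 and Eef1a1, which carries aminoacyl-tRNA to the ribosome, had 0.14. The probes of Eef1a1 differed in sign, from -0.25 to 0.14. Eef1e1, a scaffold of the tRNA synthetase complex, had -0.33 ± 0.11 (adjusted p = 0.0695).

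Release and recycling factors gave 2 of 3 genes lower with PP242. Gspt1, which encodes the GTPase eRF3a, stood at 4.06, 4.10 and 4.31 with DMSO, at 3.92, 3.91 and 3.92 with rapamycin, and at 3.43 and 3.49 with PP242, a change of -0.70 ± 0.10 (adjusted p = 0.00511). Abce1, which splits the ribosome after release, stood at 4.65, 4.61 and 4.73 with DMSO, at 4.36, 4.42 and 4.40 with rapamycin, and at 3.96 and 3.98 with PP242, a change of -0.69 ± 0.08 (adjusted p = 0.00246). In both genes the 3 groups were separate and in the order DMSO, rapamycin, PP242. The dimmer probe of Abce1 gave -1.12.

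Etf1, which encodes the partner eRF1 that reads the stop codon, read 2.94, 3.02 and 2.95 with DMSO, 2.87, 2.85 and 2.80 with rapamycin, and 2.82 and 2.91 with PP242. The drug arrays lay just below the DMSO arrays, and the change of -0.11 did not pass (interval from -0.31 to 0.10). Its other probe gave -0.47. Pabpc1, the cytoplasmic poly(A)-binding protein, read 7.48, 7.38 and 7.38 with DMSO, 7.22, 7.46 and 6.95 with rapamycin, and 7.56 and 6.91 with PP242. Its PP242 arrays differed from each other by more than its group means did, and the change of -0.18 had an interval from -0.72 to 0.37.

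**Figure D3:**
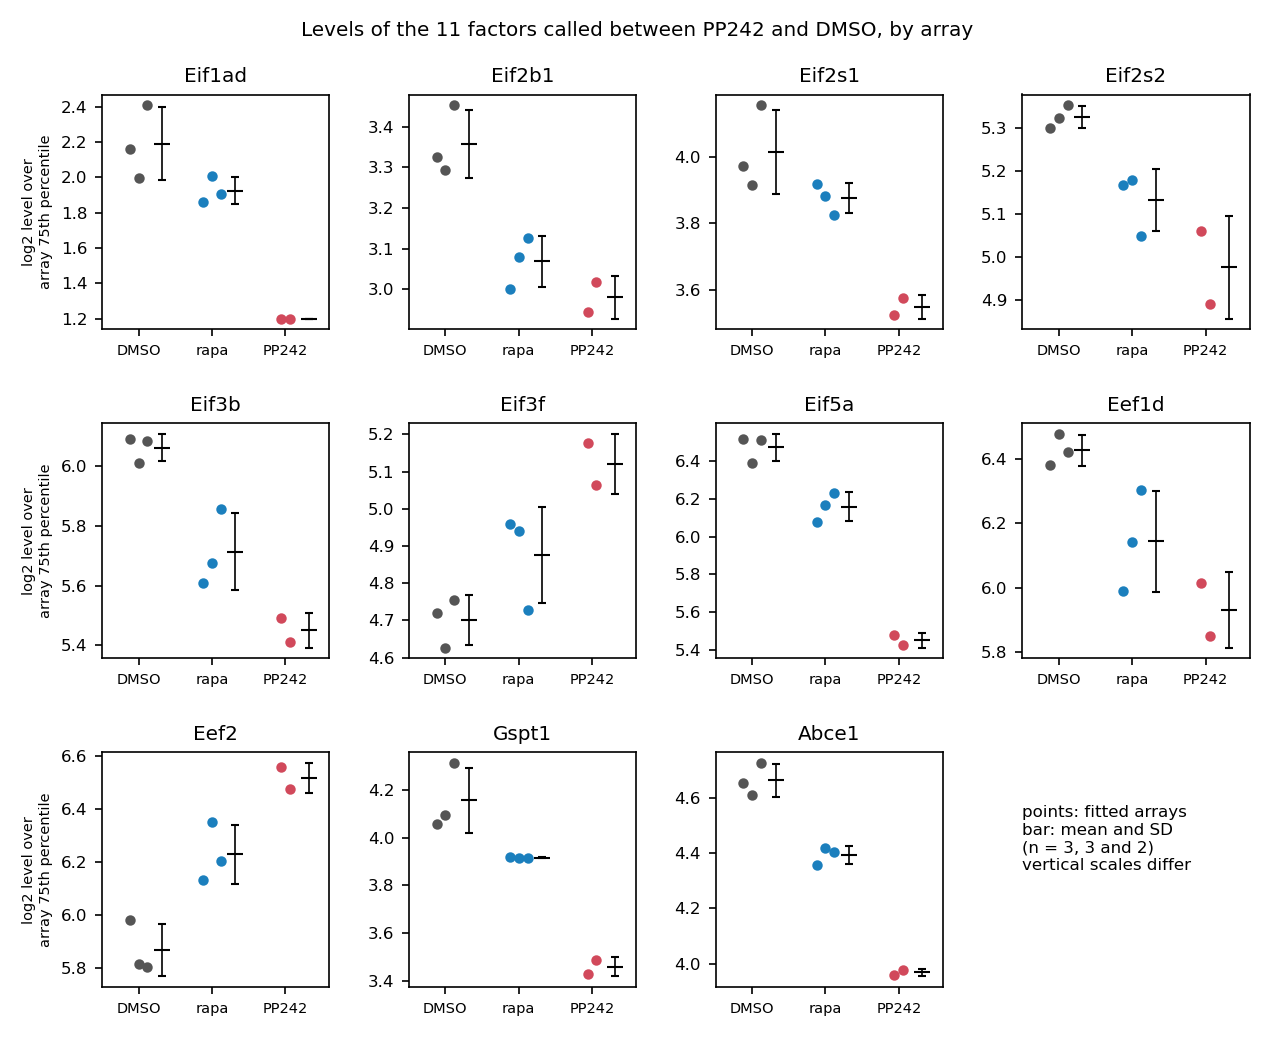
Levels of the 11 genes called between PP242 and DMSO on the 8 fitted arrays, 1 panel per gene with its own vertical scale, as log2 over the array's 75th percentile; points are arrays and bars the mean and SD (n = 3 DMSO, 3 rapamycin and 2 PP242). In each panel the rapamycin mean lies between the DMSO and PP242 means, as it does for 25 of all 39 genes. The panels were chosen by the difference between PP242 and DMSO. In 5 of the 11 the rapamycin arrays overlap neither other group. These orders were not counted over all genes. Of all genes, 18.6% had rapamycin arrays that did not overlap the DMSO arrays, and 53.5% had ones that did not overlap the PP242 arrays.

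In the panels of levels by array, the PP242 and DMSO arrays are separate for all 11 called genes. Over all 39 genes this separation held for 27 (69.2%; 7 higher and 20 lower), against 58.9% of all genes (29.7% higher and 29.2% lower). Of the 20 that were lower on both PP242 arrays than on each DMSO array, 16 were among the 22 other genes and 4 among the 17 TOP-type genes.

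On the 4 arrays with raised dim probes the 39 genes read low against the 75th percentile. Their median deviation from each gene's mean was -0.20 on DMSO 2, -0.33 on PP242 1 and -0.52 on PP242 4, against -0.09 to 0.14 on the 8 fitted arrays. Eif5a still read lower on the raised PP242 arrays (5.28 and 5.19) than on the raised DMSO array (6.18). With all 4 PP242 and all 4 DMSO arrays, 8 of the 39 genes (20.5%) did not overlap between the groups, all lower with PP242, against 19.7% of all genes in either direction and 9.94% lower.

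Rapamycin gave no call among the 39 genes, and few anywhere. In limma 0 of 39 passed, against 0.056% of all genes, and 12 of 39 had an unadjusted p under 0.05, against 13.2% of all genes. The largest differences were in Eif2b4 (-0.38 ± 0.07, adjusted p = 0.143), Eef2 (0.36 ± 0.10, adjusted p = 0.223), Eif3c (-0.36 ± 0.09, adjusted p = 0.198) and Eif3b (-0.35 ± 0.09, adjusted p = 0.223). Eif5a had -0.31 ± 0.08, Eif2b1 -0.29 ± 0.09, Eef1d -0.28 ± 0.11, Abce1 -0.27 ± 0.08 and Gspt1 -0.24 ± 0.09. In 16 of 39 genes (41.0%) the rapamycin and DMSO arrays did not overlap, against 18.6% of all genes. Of these 14 were lower, against 10.2% of all genes. No adjustment for testing applies to such a count, and it is a description of these arrays.

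Eif2b4 shows that the agents did not always order the groups alike. It read 3.83, 3.78 and 3.86 with DMSO, 3.42, 3.47 and 3.43 with rapamycin, and 3.68 and 3.77 with PP242. The rapamycin arrays were thus lowest, and the difference of 0.29 ± 0.08 between PP242 and rapamycin missed the threshold (adjusted p = 0.072). Eif3c had the same order at its brightest probe. That probe read 6.03, 5.98 and 6.08 with DMSO, 5.64, 5.80 and 5.57 with rapamycin, and 5.96 and 5.94 with PP242. Its dimmer probes had differences of 0.18, -0.06 and -0.25 between PP242 and rapamycin, so the order depends on the probe.

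Set directly against rapamycin, PP242 gave lower levels of 4 of the 39 genes (10.3%), against 14.1% of all genes called (7.35% lower). They were Eif1ad (-0.72 ± 0.14, adjusted p = 0.0191), Eif5a (-0.70 ± 0.09, adjusted p = 0.00626), Gspt1 (-0.46 ± 0.10, adjusted p = 0.0356) and Abce1 (-0.42 ± 0.08, adjusted p = 0.0226). All 4 are genes for factors outside the eEF1, eEF2 and eIF3 families, and 0 of 17 TOP-type genes passed (4 had an unadjusted p under 0.05, against 29.1% of all genes). The 4 differences ran from -0.66 to -0.40 within slide 1 and from -0.81 to -0.43 within slide 2, where their sign follows from the separation of the same arrays. With the slide as a block 0 of 39 genes passed, against 2.64% of all genes, and with all 12 arrays 0 of 39 and 0% of all genes. Quantile normalisation gave 1 higher and 3 lower, and the deposited log2 table gave 2 higher and 4 lower. Leaving out PP242 2 or PP242 3 also left 0 called. Eef2 had 0.29 ± 0.11 between PP242 and rapamycin, with an interval from 0.03 to 0.55 before adjustment, and did not pass (adjusted p = 0.14). The comparisons with DMSO share their control arrays, so the values of the 2 agents are given side by side and not correlated.

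**Figure D4:**
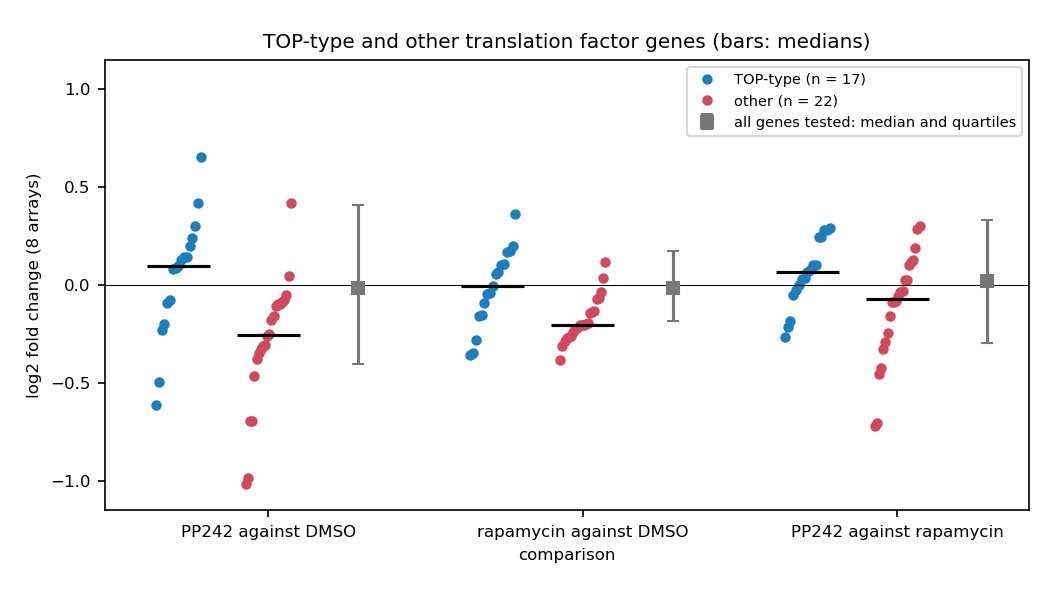
Log2 fold changes (8 arrays) of the 17 TOP-type genes (blue) and the 22 other genes (red) in each comparison, with black bars for medians and grey squares with bars for the median and quartiles of all genes tested. In the comparison of PP242 with DMSO the blue median is 0.10 and the red median -0.26.

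The TOP-type and other genes had medians that lay apart. With PP242 the TOP-type median was 0.10, with 11 of 17 values above 0, and the other genes had -0.26, with 20 of 22 below 0; the median over all genes was -0.014. With rapamycin the medians were -0.003 and -0.20, again with 20 of 22 other genes below 0, and over all genes -0.015. Between PP242 and rapamycin they were 0.07 and -0.07. Calls with PP242 numbered 4 of 17 and 7 of 22, and the 4 TOP-type calls were split evenly between higher and lower. Medians on single arrays varied by a pooled SD of 0.07 for TOP-type and 0.04 for other genes. The gap between the lists was not tested, since genes of a list share arrays and are not replicates.

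Brightness moved with this split. Of the 17 TOP-type genes, 12 had a mean level of at least 5, against 5 of the 22 other genes. Within the bright genes the medians with PP242 were 0.08 (TOP-type) and -0.18 (other), against -0.11 over 715 bright genes of the whole array. Within the dimmer genes they were 0.14 (5 genes) and -0.26 (17 genes). The order was the same in both classes.

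The 2 fitted PP242 arrays differed with brightness as well. PP242 2 was above PP242 3 for 90.9% of the 715 bright genes, by a median of 0.18, and for 14 of 17 TOP-type genes (median 0.15) but 9 of 22 other genes (median -0.01). With PP242 2 left out, the TOP-type median was 0.023, so its sign rests on a small margin. On all 12 arrays it was -0.0074, with -0.38 for the other genes, where the median over all genes itself shifted by 0.35. The part of brightness and of single arrays in the gap was not tested.

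The genes around these factors were read from 7 lists of cofactors, regulators and relatives, 58 genes of which 54 were measured. With PP242 15 of 54 were called (27.8%, against 26.2% of all genes), 6 higher and 9 lower. With rapamycin 0 of 54 were called in limma, against 0.056% of all genes, and 8 had an unadjusted p under 0.05, against 13.2%. The cap-binding list, whose products recruit the ribosome to the mRNA cap, gave 3 higher and 4 lower of 13. Eif4a2, an RNA helicase, had 0.85 ± 0.11 (adjusted p = 0.00321). The cap-binding gene Eif4e had -0.59 ± 0.09 (adjusted p = 0.00505) and the scaffold gene Eif4g1 had -0.56 ± 0.10 (adjusted p = 0.0101). Eif4ebp1, which encodes the repressor of eIF4E that mTOR complex 1 phosphorylates, had 0.09 ± 0.23 (adjusted p = 0.804). Between PP242 and rapamycin, 2 of the 13 were higher, Eif4a2 (0.67) and Eif4ebp3 (0.57).

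Hypusine on eIF5A is made by Dhps and Dohh, which had -0.40 and -0.39 with PP242 (adjusted p = 0.0753 and 0.1) and did not pass. Among the 6 diphthamide enzymes, which modify eEF2, Dph3 (-0.54, adjusted p = 0.0293) and Dph2 (-0.53, adjusted p = 0.0498) fell. Eef2k, the kinase that inhibits eEF2, had 0.67 ± 0.22 (adjusted p = 0.0664). In its list 0 of 4 genes passed in limma (3 had an unadjusted p under 0.05, against 38% of all genes). Eef1akmt4, the brightest gene of that list, had -0.36 ± 0.13. Of 6 genes for eIF2 kinases and phosphatase subunits, Ppp1r15a, also known as GADD34, rose by 1.13 ± 0.33 (adjusted p = 0.0493).

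Among 9 measured rescue factors and paralogs, Pelo, the relative of eRF1 that frees stalled ribosomes, fell by 0.68 on the log2 scale (adjusted p = 0.0028), and it was also lower with PP242 than with rapamycin (-0.64, adjusted p = 0.00634). Mcts1, the brightest of this list that did not pass, had 0.05 ± 0.11. Of 5 poly(A)-binding partners, Paip2b fell (-0.49, adjusted p = 0.042), and Pabpn1 had -0.08. Mitochondrial translation factors gave 2 higher, Mtrf1 (0.58) and Mrrf (0.59), and 1 lower, Gfm1 (-0.81), of 9, while Tufm had -0.27 ± 0.10 (adjusted p = 0.103). Mtrf1 (0.60) and Mrrf (0.54) were also called higher with PP242 than with rapamycin.

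**Figure D5:**
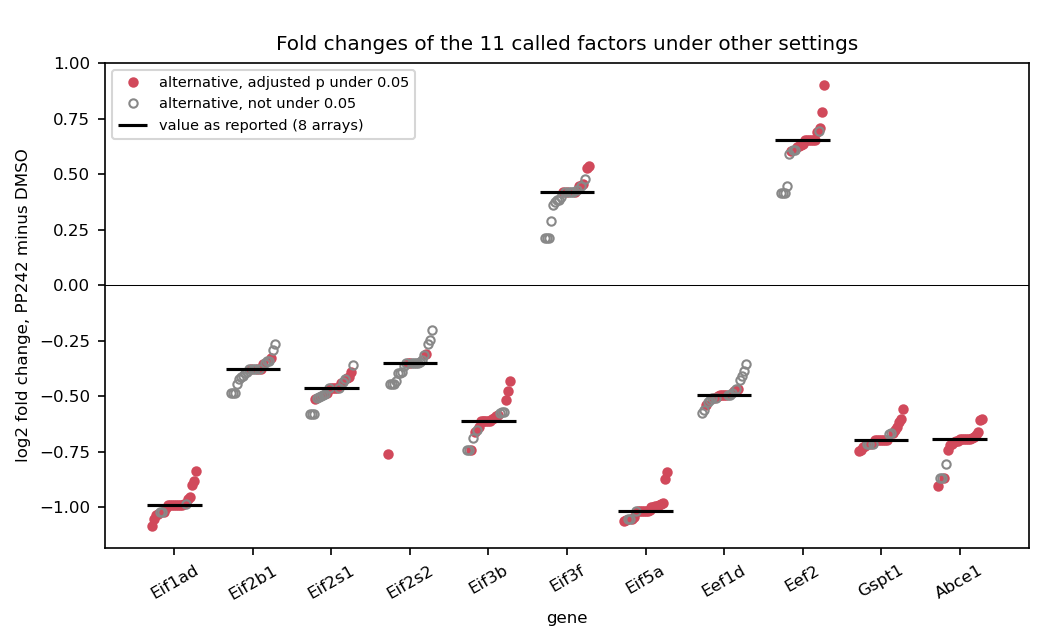
Log2 fold change between PP242 and DMSO of the 11 called genes under each of 23 other settings (points; red where the adjusted p was under 0.05) beside the value on 8 arrays (black bar). No point crosses 0, and Eif5a, Eif1ad and Abce1 are red in 20 of 23 settings.

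The plot of fold changes by setting shows which of the 11 calls depended on the choices made. Eif5a, Eif1ad and Abce1 passed in 20 of 23 other settings, and the 3 settings in which they did not were fits of all 12 arrays without weights. Gspt1 passed in 18, Eif3b in 16 and Eef2 in 15. The calls of Eif2s1 (10 of 23), Eef1d (9), Eif3f (7), Eif2b1 (5) and Eif2s2 (4) were lost in most settings. With PP242 2 left out only Eif5a (adjusted p = 0.0155), Abce1 (0.0319) and Eif1ad (0.0373) passed, and with PP242 3 left out only those and Gspt1 (0.0449); over all settings the adjusted p of Eif5a ran from 7.26e-06 to 0.893, that of Abce1 from 0.00013 to 0.925, that of Eif1ad from 2.05e-05 to 0.554 and that of Gspt1 from 0.000121 to 0.925. The sign of all 11 changes was kept in all 23 settings, which share arrays with the fit that chose the 11 genes.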

How the data were processed

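Total RNA of NIH3T3 cells was amplified, labelled with Cy3 and hybridised to 12 1-colour Agilent arrays, 4 per treatment, per the labels' protocols. The authors deposited each array's scanner output, a linear processed signal intensity per spot from Agilent Feature Extraction (version 10.5.1.1 per the file headers, 10.1 per the submitters' processing notes), and a table of log2 values whose ranks follow the spot intensities and with a normalisation not given in the sources used here. That deposited log2 table served as an alternative. Control spots and outlier spots were left out, spots of a probe were averaged, and each array's 75th percentile was subtracted from log2 of the intensity. Accessions were matched to RefSeq symbols for 24844 of 41174 probes, and the brightest probe over 12 arrays stood for a gene, with unnamed probes kept singly. Probes that stood well above background on 2 or more of the fitted arrays entered limma 3.58.1 (R 4.3.3; lmFit, eBayes, two-sided), with all 3 groups in 1 model and Benjamini-Hochberg adjustment; the model was tested on simulated data. The 8 arrays are those whose 75th percentile exceeded 100 times the 25th. Differences are log2 fold changes, and the number of arrays limits their precision.

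All 40 genes were named by rule, in full those that passed in any comparison and the brightest that did not pass in each role. Of each related list, up to 3 passing genes per comparison and the brightest that did not pass were named, and further genes were chosen after their values were seen. The genes, lists and choice of arrays were made with earlier results of these data known. Alternatives were other sets of arrays, array weights, normalisations, background correction, filters on dim probes, the mean of a gene's probes, slide or replicate number as a block, and leaving out each array. The slide block on 12 arrays and the fit of 11 arrays were chosen after seeing the data. Whether the independent experiments were separate cultures is not stated further, so p-values measure the spread between these arrays.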

Additional observations from a re-analysis of the deposited data

Results flagged for a closer look

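In the rapamycin group 1 of the 4 arrays stood apart from the other 3, namely Rapamycin 3, which the tests did not use. Over 36 groups of 4 arrays examined (the 11 called genes and the median of the 39 genes, in 3 treatments), 12 values had a gap to the nearest array larger than Dixon's 95% value allows, all of them on Rapamycin 3, and chance alone gives about 1 in 20 groups. The levels there were 0.48 for Eif1ad, 1.19 for Eif2b1, 1.37 for Eif2s1, 2.85 for Eif2s2, 3.36 for Eif3b and 2.32 for Eif3f. They were 3.47 for Eif5a, 3.68 for Eef1d, 3.71 for Eef2, 1.60 for Gspt1 and 1.93 for Abce1. The median deviation of the 39 genes from their own means was -2.39. On the other rapamycin arrays the same genes lay within narrow ranges, 6.08 to 6.23 for Eif5a and 3.91 to 3.92 for Gspt1. The 12 values share 1 array and are not independent of each other.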

How the results depend on the processing

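Among 15 other settings besides leaving out an array, the number of the 39 genes called between PP242 and DMSO (11, 2 higher and 9 lower) stayed within 1.5 times in 4. Of these, quantile normalisation gave 5 higher and 5 lower and the deposited table gave 5 higher and 6 lower. It was 0 with all 12 arrays, with the slide as a block on 12 arrays and with the replicate block on 12 arrays, and 17 (5 higher, 12 lower) on 12 arrays with array weights. It was 7 with median centring, with normexp background and with only the 2 groups compared, 6 with no filter on dim probes and with 11 arrays, and 3 with the slide as a block. The share of all genes tested that was called (26.2%) became 0.441% with 12 arrays and 0% with either block on 12 arrays. It became 11.4% with no filter, 7.25% with the slide as a block and 14.2% with 11 arrays. With weights it was 38.3%, with median centring 21.0%, with normexp 18.4% and with only the 2 groups compared 22.2%. Counts in the related lists (15) were 0 with 12 arrays and with either block on them, 30 with weights, 9 with median centring and with no filter, and 2 with the slide as a block. Between PP242 and rapamycin the 4 calls became 0 with 12 arrays, with the slide as a block and with either block on 12 arrays, 10 with weights, 2 with median centring, no filter or 11 arrays, and 1 with normexp. The share of all genes (14.1%) was 0% with 12 arrays and with either block on them, 29.99% with weights, 8.96% with median centring, 8.25% with normexp, 5.07% with no filter, 2.64% with the slide as a block and 5.05% with 11 arrays. The related lists (5) gave 0 with 12 arrays, with the slide as a block and with either block on 12 arrays, 22 with weights, 2 with median centring, 3 with no filter and with 11 arrays, and 8 with probes required above background on all arrays fitted. For rapamycin against DMSO the 0 calls among the 39 became 6 with weights (5 in the related lists). The 0.056% called of all genes became 0% with 12 arrays, with median centring, normexp, no filter, either block on 8 or 12 arrays or only the 2 groups compared, 11.2% with weights, 0.107% with quantile normalisation, 0.0306% with the deposited table, 0.409% with probes above background on all arrays fitted, 0.0255% with the mean of a gene's probes and 0.00838% with 11 arrays.

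The median log2 fold change of the 39 genes between PP242 and DMSO (-0.10) became -0.27 with 12 arrays, the replicate block on them or 11 arrays, -0.022 with quantile normalisation, -0.18 with the mean of a gene's probes and -0.21 with the slide as a block on 12 arrays. The TOP-type median (0.10) became -0.0074 with 12 arrays, the replicate block on them or 11 arrays, 0.18 with weights and 0.20 with quantile normalisation and with the deposited table. That of the other genes (-0.26) became -0.38 with 12 arrays, the replicate block on them or 11 arrays, -0.20 with weights, -0.15 with quantile normalisation, -0.30 with median centring, -0.17 with the deposited table and -0.31 with the slide as a block on 12 arrays. For rapamycin against DMSO the 39 genes (-0.14) had -0.58 with 12 arrays and the replicate block on them, -0.45 with the slide as a block on 12, -0.082 with quantile normalisation, -0.24 with median centring, -0.055 with the deposited table and -0.068 with 11 arrays. The TOP-type genes (-0.003) had -0.55, -0.42 with the slide as a block on 12, -0.10 with median centring and 0.10 with the deposited table, and the other genes (-0.20) had -0.64, -0.46, -0.14 with weights, -0.16 with quantile normalisation, -0.30 with median centring, -0.15 with the deposited table and -0.12 with 11 arrays. Between PP242 and rapamycin the 39 genes (0.0019) had 0.33 with 12 arrays and the replicate block on them, 0.25 with the slide as a block on 12, 0.057 with median centring and -0.18 with 11 arrays. There the TOP-type genes (0.07) had 0.50, 0.42 and, with 11 arrays, -0.083, and the other genes (-0.07) had 0.21, 0.15, -0.016 with quantile normalisation, -0.015 with median centring, -0.017 with the deposited table, and -0.27 with 11 arrays. The cause of these moves was not tested, except that 12 arrays also moved the median of all genes by 0.35, 0.16 and 0.21 in the 3 comparisons, no filter by -0.22 and -0.17 for PP242, and median centring by -0.10 for rapamycin against DMSO.

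Leaving out 1 array at a time gave 3 to 12 of the 39 genes, 9.15% to 31.3% of all genes and 3 to 18 of the related genes between PP242 and DMSO, with 3 of 39 without PP242 2 and 4 without PP242 3. Between PP242 and rapamycin it gave 0 to 5, 2.52% to 17.7% and 0 to 7, and for rapamycin 0, 0% to 0.509% and 0. A lone PP242 array was then assumed to vary like the other groups. The medians ran from -0.17 to -0.10 (39 genes), 0.023 to 0.17 (TOP-type) and -0.28 to -0.24 (other) for PP242 against DMSO, from -0.17 to -0.11, -0.06 to 0.04 and -0.22 to -0.16 for rapamycin, and from -0.070 to 0.060, 0.025 to 0.18 and -0.11 to -0.04 between the agents. No called gene changed sign. Among genes not called, 15 of 28 (PP242), 19 of 39 (rapamycin) and 31 of 35 (between the agents) did in at least 1 setting. This contrast follows in large part from the call, since called genes lie far from 0 for their SE and the settings share arrays.

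The replicate numbers were not taken as pairing the arrays. Deviations of arrays with the same number correlated between -0.25 and 0.62 over 4 pairs of the 8 arrays (3 above 0.1). Arrays of different numbers gave -0.47 to 0.39 over 17 pairs. Over all 12 arrays the ranges were -0.90 to 0.79 (12 pairs) and -0.88 to 0.91 (36 pairs). Of the 8 arrays, 4 correlated best with their own number, as did 1 of all 12. These values did not settle whether equal numbers mark the same experiment. With the replicate block 4 of the 39 genes and 6 related genes were called between PP242 and DMSO, against 20.3% of all genes. Between PP242 and rapamycin the block gave 0 of the 39 genes and 1 related gene, against 5.02% of all genes. The 2 fitted PP242 arrays limit the precision, and saturation limited none of the spots.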
